A study of Homo sapiens with 6 samples.

Results

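Long intergenic noncoding RNAs with a LINC number were followed through the first 5 days of a chemical protocol applied to BJ cells, an established line of human foreskin fibroblasts. The genes were the rows named LINC and a number that had at least 1 CPM (counts scaled to a fixed library size) by the library total in both libraries of at least 1 day. Among 60843 genes, 2133 carried a LINC number, 1255 of these had no count in any library, and 140 met the rule. The rule used the level on each day, so that these genes were selected for being detectable at day 0, day 2 or day 5. All libraries came from the same wild-type line, with 2 libraries a day. Day 0 libraries came from fibroblasts in DMEM with serum. Day 2 libraries came from cells kept in neuronal induction medium with 10 µM forskolin on coated dishes, and day 5 libraries from cells then moved to neuronal maturation medium with 10 µM forskolin, both of which the labels call induced neuron cells. Forskolin activates adenylyl cyclase and so raises cAMP. Drug, medium and elapsed time differ together between the days, so their parts cannot be told apart. Separate cultures are not named in the labels for the 2 libraries of 1 day, and the p-values reflect the variation between libraries, which may be technical.

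LINC numbers are given to long noncoding RNA genes that have no better name, most of them transcribed by RNA polymerase II, capped, spliced and polyadenylated like messenger RNAs but without a known protein. Many are low in abundance and vary more between cell types than protein-coding genes do. Some act on a neighbouring gene on the same chromosome, some serve as hosts for microRNAs or circular RNAs, and most have no established function.

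The libraries held 17605858 to 27953926 counts, and 3 counts corresponded to 0.103 to 0.180 CPM after scaling. The 9 fibroblast markers (COL1A1, COL1A2, COL3A1, DCN, LUM, PDGFRB, THY1, FAP and VIM) were all above 1 CPM and summed to 18357 and 18719 CPM on day 0, 15411 and 15626 CPM on day 2, and 26566 and 27047 CPM on day 5. The 12 neuronal markers summed to 252 and 261 CPM on day 0, 155 and 162 CPM on day 2, and 112 and 115 CPM on day 5, with STMN2 and ELAVL4 at 0 in every library. TUBB3 alone made up 75.9 to 88.5% of this sum, and only TUBB3, MAP2, SYN1, SNAP25 and SYT1 reached 1 CPM in any library. These did not move together: at day 5 over day 0 TUBB3, MAP2 and SYT1 were lower (log2 -1.37, -3.92 and -0.99, adjusted p = 1.7e-15, 1.4e-09 and 1.7e-05), SNAP25 was higher (1.64, adjusted p = 7.0e-09) and SYN1 was not called (-0.13, adjusted p = 0.713). DCX, which marks young neurons, had at most 0.0546 CPM on the days whose libraries are labelled induced neuron. The 4 endothelial markers summed to 4.97 and 6.77 CPM on day 0, 8.62 and 9.45 CPM on day 2, and 64.8 and 61.3 CPM on day 5. Only 2 of these 4 reached 1 CPM in any library. The sums were at most 6.93 CPM for 6 glial markers, 0.546 CPM for 5 keratinocyte markers and 5.47 CPM for 4 blood markers, with AQP4, KRT5, KRT14, KRT1, TP63 and CD3E at 0. In bulk RNA, fewer cells of a type and less RNA per cell cannot be told apart, and the part of such shifts in the values that follow was not tested.

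The 140 genes took a small share of each library. They held 0.0908 and 0.0902% of all counts on day 0, 0.0929 and 0.0925% on day 2, and 0.122 and 0.123% on day 5. The shares of both day 5 libraries lay above those of all other libraries, while day 0 and day 2 lay close together. Without LINC01619, LINC00205, LINC00475 and LINC02593, the remaining genes held 0.0638 and 0.0633% on day 0. They held 0.0562 and 0.0564% on day 2, and 0.067 and 0.0679% on day 5. IGFBP5 alone took 10.7% of the counts in both day 5 libraries, against 0.38 and 0.378% on day 0, which enters every share of a library total. By the rule, 109 of the 140 genes passed on day 0, 106 on day 2 and 106 on day 5, and 77 passed on all 3 days. The others passed on 2 days in 27 cases and on 1 day in 36 cases, and of these 36 genes 15 passed only on day 0, 8 only on day 2 and 13 only on day 5. A few genes held much of the signal. LINC01619 made up 3.39 and 3.11% of the counts of the 140 genes on day 0, 21.6 and 20.6% on day 2, and 20.6 and 19.5% on day 5. LINC00475 made up 16.8 and 17% on day 0, 6.04 and 5.85% on day 2, and 2.28 and 2.41% on day 5. LINC02593 held 0.967 and 0.926% on day 0, 1.44 and 1.52% on day 2, and 12.9 and 13.1% on day 5. The gene with the most counts of the 140 thus changed, being LINC00475 in both day 0 libraries and LINC01619 in all libraries of day 2 and day 5.

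**Figure D1:**
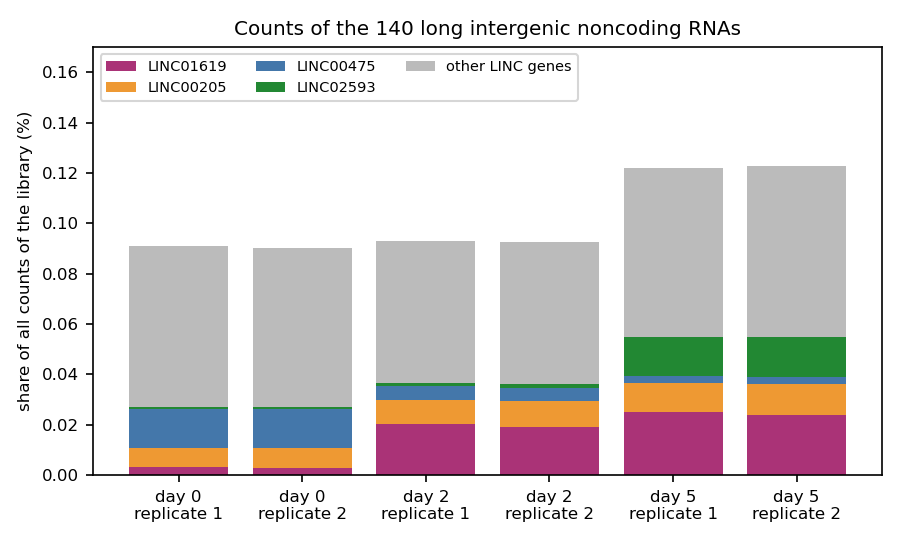
Share of all counts of a library (percent, y axis) taken by the 140 long intergenic noncoding RNAs in each of the 6 libraries (x axis), with LINC01619, LINC00205, LINC00475 and LINC02593 in colour and the other genes in grey. The total is 0.122 and 0.123% in the day 5 libraries and at most 0.0929% in the others, and the LINC00475 part is largest at day 0.

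Levels between genes were compared per kilobase of the gene length given in the table, as CPM per kb averaged over the 6 libraries. LINC01619 had the highest level with 54.3 CPM per kb, followed by LINC00674 with 46.4, LINC00475 with 30.2, LINC01786 with 24.6, LINC02802 with 20.6, LINC02593 with 15.2 and LINC00205 with 13.2 CPM per kb. All others were at or below 7.45 CPM per kb. The order differed between days. On day 0 LINC00475 was first with 55.5 and 56 CPM per kb and LINC01619 sixth with 9.34 and 8.55 CPM per kb. LINC01619 was first on day 2 with 69.5 and 65.8 CPM per kb and on day 5 with 88.5 and 84.1 CPM per kb, when LINC00475 was seventh with 11.7 and 12.5 CPM per kb. LINC00674, second by this measure on each day, had 31.7 and 31.9 CPM on day 0, 35.6 and 30.8 CPM on day 2, and 31.2 and 27.6 CPM on day 5. It passed the test in none of the 3 comparisons, with log2 fold changes of 0.06 ± 0.08 (SE) at day 2 over day 0, -0.11 ± 0.08 at day 5 over day 0 and -0.17 ± 0.08 at day 5 over day 2. Scaled to library totals it was lower at day 5 than at day 0 (log2 fold change -0.32, adjusted p = 0.00263). Without day 2 replicate 2 it was lower at day 5 than at day 2 (-0.28, adjusted p = 0.0127), and likewise without day 5 replicate 1 (-0.27, adjusted p = 0.0306).

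All 140 genes matched a GENCODE release 29 gene on GRCh38 by identifier. They lay on 23 chromosomes, with 21 on chromosome 1. The annotation gave the type lincRNA to 102 of them, processed transcript to 16, transcribed unprocessed pseudogene to 9 and antisense to 7. It listed 2 as protein coding, LINC00672 and LINC02693, the latter under the name C17orf51. By this release a LINC number thus did not always mean an intergenic noncoding gene. The merged exons of a gene spanned 405 to 28876 bases (median 3285). Exons of 63 genes shared bases with exons of another gene, on the opposite strand in 46 and on the same strand in 28. The strand setting of the counting is not given in the sources used here, so reads of such pairs cannot be told apart. In 20 cases the nearest protein-coding gene started within 5 kb on the opposite strand, and in 15 of these the genes ran away from each other. The median distance to the start of the nearest protein-coding gene was 47235 bases.

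Promoter sequences from RefSeq on GRCh38.p14, running from 250 bases before to 50 bases after the start of the gene, matched 91 of the 140 genes by symbol. LINC00475 and LINC00674 were not among these. Forskolin raises cAMP, which acts on genes through the factor CREB at cAMP response elements, and these were therefore looked for. Sequences are shown for 6 genes with large changes described below and for LINC01409, which holds the full element. Capitals mark the full element TGACGTCA, its shorter form TGACG (which also lies within the full one), the AP-1-like pattern TGANTCA (any base at N) and TATAAA, searched on both strands. The RefSeq start of LINC02593 lies inside the gene as GENCODE draws it.
LINC01619, chr12:92142782-92143081, strand minus: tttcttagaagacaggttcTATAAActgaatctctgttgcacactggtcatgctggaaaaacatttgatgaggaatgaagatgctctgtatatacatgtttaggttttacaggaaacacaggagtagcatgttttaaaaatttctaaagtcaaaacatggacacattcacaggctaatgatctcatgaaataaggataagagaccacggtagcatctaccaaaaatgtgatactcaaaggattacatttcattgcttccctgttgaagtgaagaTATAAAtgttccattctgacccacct
LINC02593, chr1:919643-919942, strand minus: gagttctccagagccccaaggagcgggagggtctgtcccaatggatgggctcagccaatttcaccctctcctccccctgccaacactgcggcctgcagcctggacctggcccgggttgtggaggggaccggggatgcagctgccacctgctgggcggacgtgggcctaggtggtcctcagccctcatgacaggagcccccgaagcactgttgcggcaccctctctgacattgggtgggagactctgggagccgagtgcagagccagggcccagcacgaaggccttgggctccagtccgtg
LINC01679, chr21:43362300-43362599, strand minus: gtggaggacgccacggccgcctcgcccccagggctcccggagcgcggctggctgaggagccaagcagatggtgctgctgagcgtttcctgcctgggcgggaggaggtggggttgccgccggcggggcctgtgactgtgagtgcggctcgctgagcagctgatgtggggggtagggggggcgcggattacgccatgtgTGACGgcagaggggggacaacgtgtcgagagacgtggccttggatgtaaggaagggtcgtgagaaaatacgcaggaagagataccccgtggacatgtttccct
LINC01091, chr4:123649741-123650040, strand plus: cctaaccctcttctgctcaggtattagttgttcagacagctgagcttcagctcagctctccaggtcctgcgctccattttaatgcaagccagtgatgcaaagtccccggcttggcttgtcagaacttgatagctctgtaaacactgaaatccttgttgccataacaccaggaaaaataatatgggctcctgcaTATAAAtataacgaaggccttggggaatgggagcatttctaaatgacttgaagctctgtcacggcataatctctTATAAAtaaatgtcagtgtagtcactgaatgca
LINC00324, chr17:8223994-8224293, strand minus: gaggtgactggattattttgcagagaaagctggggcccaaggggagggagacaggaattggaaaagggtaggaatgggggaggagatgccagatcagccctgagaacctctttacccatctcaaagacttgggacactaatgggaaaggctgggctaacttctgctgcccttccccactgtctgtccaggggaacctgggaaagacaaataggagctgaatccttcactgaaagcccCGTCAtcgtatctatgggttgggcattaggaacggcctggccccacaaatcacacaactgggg
LINC01046, chr13:21234318-21234617, strand plus: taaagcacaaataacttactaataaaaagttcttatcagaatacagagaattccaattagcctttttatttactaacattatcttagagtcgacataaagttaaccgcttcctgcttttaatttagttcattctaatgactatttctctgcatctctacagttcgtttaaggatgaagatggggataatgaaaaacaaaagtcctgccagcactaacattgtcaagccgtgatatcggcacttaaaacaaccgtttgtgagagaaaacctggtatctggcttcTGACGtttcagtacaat
LINC01409, chr1:778548-778847, strand plus: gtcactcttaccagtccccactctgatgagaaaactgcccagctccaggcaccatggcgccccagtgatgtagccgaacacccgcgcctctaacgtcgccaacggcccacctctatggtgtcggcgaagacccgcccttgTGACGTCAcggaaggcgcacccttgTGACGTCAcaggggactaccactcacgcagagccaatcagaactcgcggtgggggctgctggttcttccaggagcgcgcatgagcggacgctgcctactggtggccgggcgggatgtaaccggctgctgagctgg
The full element was found in the promoters of 4 of 91 genes (4.4%), against 1.98% of all 27305 promoters in the RefSeq table. These 4 genes were LINC00265, LINC00630, LINC01409 and LINC02606. LINC01409 held 2 copies of the full element, and it was higher at day 2 than at day 0 (log2 fold change 1.41 ± 0.41, adjusted p = 0.00601) and higher at day 5 than at day 0 (1.98 ± 0.41, adjusted p = 3.7e-04). LINC01409 was named here after its promoter and values had been seen. Of the other carriers of the full element at day 2 over day 0, LINC00265 was lower (log2 fold change -0.67 ± 0.17, adjusted p = 0.00228), and LINC00630 (-0.04 ± 0.23, adjusted p = 0.9) and LINC02606 (-0.32 ± 0.28, adjusted p = 0.342) were not called. At day 5 over day 0, LINC00630 was higher (0.56 ± 0.23, adjusted p = 0.0391), while LINC00265 (-0.23 ± 0.17, adjusted p = 0.236) and LINC02606 (0.26 ± 0.28, adjusted p = 0.423) were not called. The shorter form occurred in 20 promoters (22%, against 25% of all promoters), and LINC01679, LINC00324 and LINC01046 held 1 copy each. The AP-1-like pattern was found in 13 promoters (14.3%, against 7.76%), in LINC00513 and LINC01081 only with A or T at N. TATAAA was found in 14 (15.4%, against 12%), including those of LINC01619 and LINC01091. Such matches describe the letters in these windows and were not set against binding data.

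For the tests, 118 of the 140 genes had a mean of at least 1 CPM over all 6 libraries, a split that makes no use of the day. The other 22 passed the rule only through 1 or 2 days and are given as values without a test. Since 27 genes passed on 2 days and 36 on 1 day, some of the 118 also passed on only 1 or 2 days. LINC00595 and LINC01605, for example, passed only on day 0, LINC01287 and LINC01989 only on day 2, and LINC01091 only on day 5. The level on those days helped to select such genes, and their calls are part of the counts below. Apart from the 140 genes, 1 gene with a LINC number had a mean of at least 1 CPM. Of the 118, 24 had their highest mean on day 0, 33 on day 2 and 61 on day 5. The highest daily mean was more than 2-fold above the lowest in 66 genes, more than 4-fold in 25 and more than 10-fold in 10, and it was less than 1.5-fold above it in 10.

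**Figure D2:**
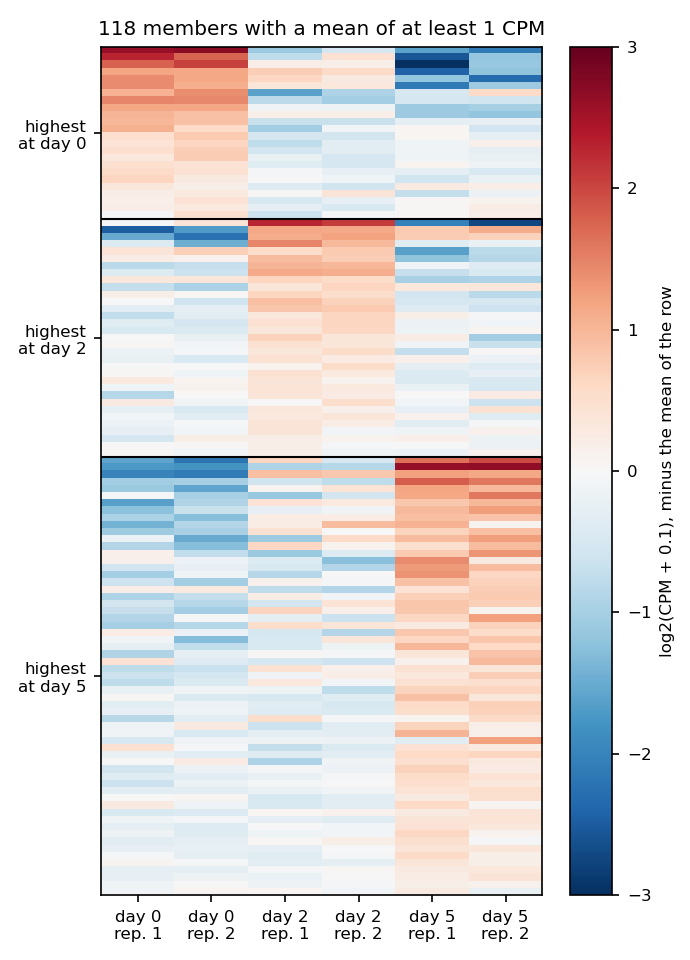
Levels of the 118 tested genes (rows) in the 6 libraries (columns) as log2(CPM + 0.1) minus the mean of the row, red above and blue below that mean, grouped by the day with the highest mean. The groups hold 24 genes (day 0), 33 genes (day 2) and 61 genes (day 5).

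At day 2, after 2 days in induction medium with forskolin, 37 of the 118 genes were higher and 27 lower than at day 0, and 54 were not called. The called share was 54.2%, against 66.8% of all 16328 genes tested and 73.3% of the genes tested with a mean of at least 1 CPM. By direction, 31.4% of the 118 were higher and 22.9% lower, against 33.4% and 33.4% of all genes tested and 36.6% and 36.7% of those with a mean of at least 1 CPM. Scaled to library totals, without the factors that bring most genes to no change, 27 were higher and 32 lower, so the share of higher calls was 45.8% in place of 57.8%. That scaling placed the median of all genes at -0.18 on the log2 scale, against 0.00. The called share of all genes was not counted under it, so these counts describe the 118 genes alone. The median log2 fold change of the 118 genes was 0.21 (0.02 when scaled to library totals), and single genes ran from -3.78 to 3.80. A change beyond 2-fold was seen in 21 called genes that rose (17.8%, against 11.8% of all genes tested) and 12 that fell (10.2%, against 10.1%), the second share being close to that of all genes.

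LINC01619, a transcript on the minus strand of chromosome 12 at 91984976 to 92142914 beside the antiproliferative gene BTG1, rose early. It reached 209 and 198 CPM at day 2, against 28.1 and 25.7 CPM at day 0. Both day 2 libraries lay far above both day 0 libraries, a 7.57-fold difference (log2 2.92 ± 0.05, adjusted p = 3.3e-18). LINC01046, a short gene of 405 exonic bases on chromosome 13, had 2.12 and 2.08 CPM at day 2, against 0.0789 and 0.206 CPM at day 0 (log2 3.80 ± 0.48, adjusted p = 2.2e-06). The day 0 values were 2 and 6 counts, and without day 0 replicate 2 the log2 fold change was 4.64. LINC00324, on chromosome 17 with the start of the mitotic kinase gene AURKB 13443 bases away, had 2.67 and 2.86 CPM at day 2, against 0.355 and 0.172 CPM at day 0 (log2 3.39 ± 0.40, adjusted p = 8.7e-07). AURKB itself was lower at day 2 (log2 -1.91 ± 0.32, adjusted p = 5.6e-05). LINC01287 had 1.08 and 1.86 CPM at day 2, against 0.276 and 0.447 CPM at day 0 (log2 2.00 ± 0.50, adjusted p = 0.00207), and LINC00960 had 1.79 and 2.23 CPM at day 2, against 0.710 and 0.481 CPM at day 0 (log2 1.76 ± 0.34, adjusted p = 2.3e-04). In each of these genes both day 2 libraries lay above both day 0 libraries. LINC01287 met the rule only on day 2, with 1.04 and 1.79 CPM of the library total, so its day 2 values helped to select it.

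Some genes were high at day 2 and lower again at day 5. LINC02577, on chromosome 7, had 1.26 and 1.72 CPM on day 0, 6.70 and 5.84 CPM on day 2, and 0.240 and 0.109 CPM on day 5. The 3 days did not overlap, with day 2 over day 0 at log2 2.06 ± 0.24 (adjusted p = 9.4e-07) and day 5 over day 2 at log2 -5.15 ± 0.38 (adjusted p = 2.6e-09). The day 5 values of LINC02577 were 4 and 2 counts, and without day 5 replicate 1 the second log2 fold change was -5.78. LINC00632 is the host gene of CDR1-AS, a circular RNA that binds the microRNA miR-7 and is abundant in brain. It had 3.16 and 3.44 CPM on day 0, 11.5 and 11.3 CPM on day 2, and 5.22 and 4.31 CPM on day 5, and its counts do not separate linear from circular RNA. Both day 2 values of LINC00632 exceeded all others (log2 1.79 ± 0.15 over day 0, adjusted p = 1.6e-08; day 5 over day 2 -1.26 ± 0.16, adjusted p = 1.6e-06). LINC01989, which overlaps an ion channel gene described below, had 0.749 and 0.309 CPM on day 0, 3.0 and 2.12 CPM on day 2, and 0.780 and 0.874 CPM on day 5 (day 2 over day 0 log2 2.28 ± 0.42, adjusted p = 1.2e-04, and 3.02 without day 0 replicate 1). LINC01989 met the rule only on day 2, so its day 2 values, which enter both comparisons with day 2, helped to select it. A rise that lasted was seen in LINC00641, with 2.33 and 3.95 CPM on day 0, 10.1 and 9.23 CPM on day 2, and 13.2 and 15.0 CPM on day 5 (day 2 over day 0 log2 1.60 ± 0.19, adjusted p = 7.5e-07).

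**Figure D3:**
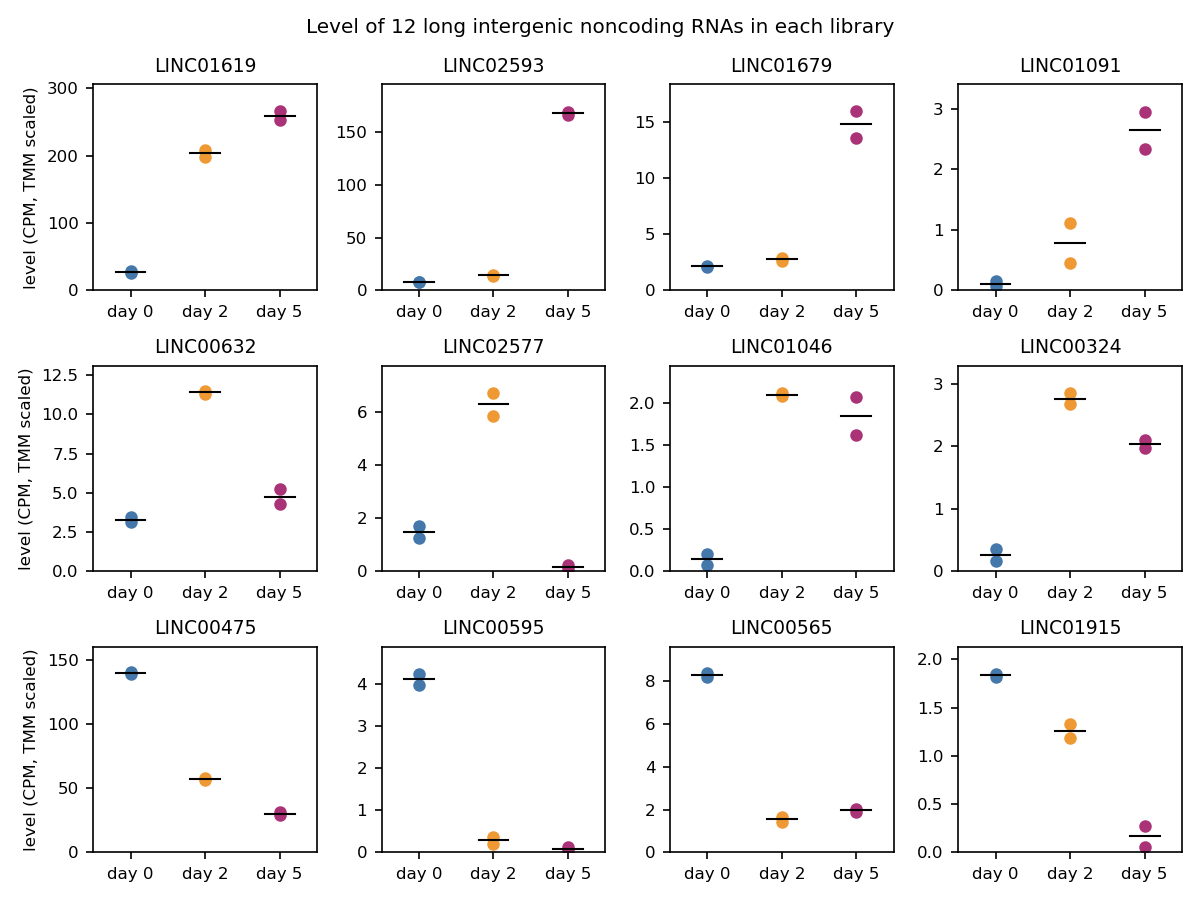
Level in CPM scaled by TMM factors (y axis, linear, from 0) of 12 genes in each library (points) at day 0, day 2 and day 5 (x axis), with a bar at the mean of each day. LINC01619, LINC02593, LINC01679 and LINC01091 are highest at day 5, LINC00632, LINC02577, LINC01046 and LINC00324 have their highest mean at day 2, and LINC00475, LINC00595, LINC00565 and LINC01915 are highest at day 0.

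Among the genes that fell at day 2, LINC00475 had the highest level per kb averaged over the libraries. This transcribed pseudogene on the plus strand of chromosome 9 at 92141298 to 92160114 had 58.3 and 56.3 CPM at day 2, against 139 and 140.4 CPM at day 0. The groups were far apart, a 2.44-fold decrease (log2 -1.29 ± 0.04, adjusted p = 5.3e-14). SPTLC1, which encodes a subunit of the enzyme that starts sphingolipid synthesis and is the nearest protein-coding gene to LINC00475, rose (log2 0.39 ± 0.04, adjusted p = 4.3e-07). LINC00595, an ID that GENCODE release 29 names LINC00856, had 0.208 and 0.372 CPM at day 2, against 3.98 and 4.23 CPM at day 0 (log2 -3.78 ± 0.38, adjusted p = 1.1e-07). LINC00595 met the rule only on day 0, so its day 0 values helped to select it. LINC00565 had 1.67 and 1.41 CPM at day 2, against 8.40 and 8.21 CPM at day 0 (log2 -2.43 ± 0.20, adjusted p = 7.4e-09), and LINC00680 had 1.08 and 1.79 CPM at day 2, against 7.34 and 9.38 CPM at day 0 (log2 -2.53 ± 0.29, adjusted p = 6.6e-07). LINC00654 fell 3.06-fold (log2 -1.61 ± 0.11, adjusted p = 8.4e-10) and LINC02709 3.61-fold (log2 -1.85 ± 0.40, adjusted p = 5.7e-04). LINC00857, on chromosome 10 with a start 2138 bases from that of the annexin gene ANXA11, fell 2.58-fold (log2 -1.36 ± 0.33, adjusted p = 0.00165, and -2.00 without day 2 replicate 2), and ANXA11 fell as well (log2 -0.56 ± 0.04, adjusted p = 2.4e-10).

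At day 5, 54 of the 118 genes were higher and 25 lower than at day 0, and 39 were not called. The called share was 66.9%, against 69.9% of all genes tested and 75.3% of those with a mean of at least 1 CPM. By direction, 45.8% of the 118 were higher and 21.2% lower, against 35.8% and 34.1% of all genes tested and 38.0% and 37.3% of those with a mean of at least 1 CPM. Their median log2 fold change was 0.49, against 0.04 over all genes tested, with single values from -5.50 to 4.52. Beyond 2-fold, 31 called genes rose (26.3%, against 15.2% of all genes tested) and 16 fell (13.6%, against 14.1%). With libraries scaled to their totals 46 were higher and 30 lower, the median of the 118 was 0.28 and that of all genes -0.16. The called share of all genes was not counted under that scaling.

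**Figure D4:**
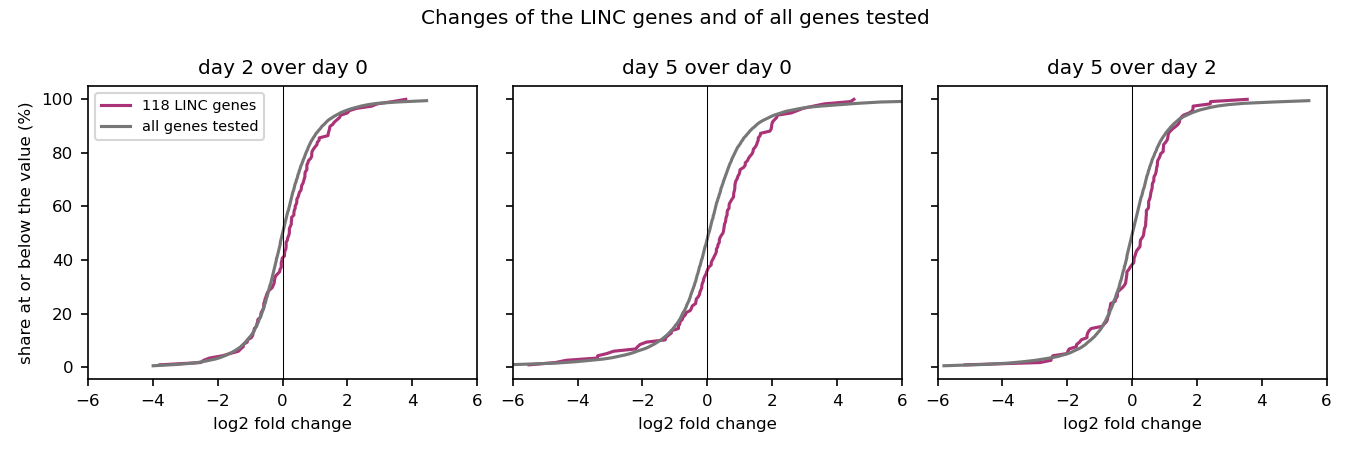
Cumulative share (percent, y axis) of the 118 genes (purple) and of all 16328 genes tested (grey) at or below a log2 fold change (x axis), for day 2 over day 0, day 5 over day 0 and day 5 over day 2. The medians are 0.21, 0.49 and 0.36 for the 118 genes and 0.00, 0.04 and 0.01 for all genes.

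A large rise by day 5 was that of LINC02593, a single-exon gene of 4152 bases on the minus strand of chromosome 1 at 916865 to 921016. It had 166 and 169 CPM at day 5, against 8.01 and 7.66 CPM at day 0. The day 5 libraries stood apart from all others, a 21.4-fold difference from day 0 (log2 4.42 ± 0.06, adjusted p = 1.3e-19), most of which lay after day 2, when 13.9 and 14.6 CPM were measured. LINC01619 reached 266 and 253 CPM at day 5, 9.66-fold its day 0 level (log2 3.27 ± 0.05, adjusted p = 3.3e-19). LINC01679, on chromosome 21, had 16.0 and 13.6 CPM at day 5, against 2.13 and 2.20 CPM at day 0 (log2 2.77 ± 0.17, adjusted p = 1.8e-10). LINC01091, a gene spread over chromosome 4 from 123650267 to 123930406, had 2.34 and 2.95 CPM at day 5, against 0.158 and 0.0687 CPM at day 0 (log2 4.52 ± 0.60, adjusted p = 3.9e-06). Its day 0 values were 4 and 2 counts, and without day 0 replicate 1 the log2 fold change was 5.15. LINC01091 met the rule only on day 5, so its day 5 values, which enter both comparisons with day 5, helped to select it. LINC00641 (log2 2.15 ± 0.18, adjusted p = 1.5e-08), LINC00960 (2.59 ± 0.34, adjusted p = 2.8e-06), LINC00324 (2.95 ± 0.42, adjusted p = 7.9e-06) and LINC01046 (3.61 ± 0.50, adjusted p = 5.4e-06, and 4.45 without day 0 replicate 2) were also higher at day 5 than at day 0.

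LINC00475 fell to 29.4 and 31.2 CPM at day 5, against 139 and 140.4 CPM at day 0, a 4.61-fold decrease (log2 -2.21 ± 0.05, adjusted p = 1.5e-16). Its 3 days did not overlap, with day 2 between the others. The other large decreases ended near the detection floor. LINC00595 had 2 and 1 counts at day 5, against 101 and 123 counts at day 0, a ratio of 0.0208 (exact 95% interval 0.00427 to 0.0617, counting error only) and adjusted p = 3.5e-08. LINC01605 had 0 and 3 counts at day 5, against 71 and 55 counts at day 0, a ratio of 0.0371 (exact 95% interval 0.00754 to 0.111) and adjusted p = 2.3e-05. Both LINC00595 and LINC01605 met the rule only on day 0, so their day 0 values helped to select them. LINC00595 and LINC01605 had fitted log2 fold changes of -5.50 and -4.69, which were -6.12 for LINC00595 and -3.80 for LINC01605 without day 5 replicate 1, and -8.84 for LINC01605 without day 5 replicate 2, where its only day 5 library holds 0 counts. LINC02709 had 0 and 5 counts at day 5, against 68 and 96 counts at day 0 (adjusted p = 3.4e-06). The size of the decrease depended on the day 5 library kept: the fitted log2 fold change of LINC02709 was -4.35, and it was -3.44 without day 5 replicate 1 and -9.20 without day 5 replicate 2. LINC01915 (log2 -3.39 ± 0.54, adjusted p = 2.9e-05), LINC02861 (-3.38 ± 0.49, adjusted p = 9.0e-06), LINC02577 (-3.09 ± 0.46, adjusted p = 1.3e-05) and LINC00900 (-2.89 ± 0.30, adjusted p = 1.4e-07) were lower at day 5 in both libraries. Leaving out 1 of the day 5 libraries moved LINC01915 to -2.74 (replicate 1 left out) or -4.83 (replicate 2), LINC02861 to -4.43 (replicate 1) or -2.74 (replicate 2), LINC02577 to -3.73 (replicate 1) and LINC00900 to -3.62 (replicate 2). With 1 library left out, the one that stays is assumed to vary as the other days do.

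Between day 2 and day 5, in maturation medium, 51 of the 118 genes were higher at day 5, 24 were lower and 43 were not called. The called share was 63.6%, against 65.8% of all genes tested and 71.8% of those with a mean of at least 1 CPM. By direction, 43.2% were higher and 20.3% lower, against 32.1% and 33.7% of all genes tested and 34.5% and 37.2% of those with a mean of at least 1 CPM, and the median log2 fold change was 0.36, against 0.01. Beyond 2-fold, 20 genes rose (16.9%, against 11.8% of all genes tested) and 16 fell (13.6%, against 12.2%). LINC02593 rose 11.7-fold over day 2 (log2 3.55 ± 0.06, adjusted p = 1.2e-18). LINC01679 had 16.0 and 13.6 CPM at day 5, against 2.92 and 2.60 CPM at day 2 (log2 2.42 ± 0.17, adjusted p = 1.0e-09), while day 2 and day 0 did not differ by the test (log2 0.35 ± 0.20, adjusted p = 0.135). LINC01341 (log2 2.41 ± 0.48, adjusted p = 3.0e-04), LINC01547 (1.88 ± 0.36, adjusted p = 1.8e-04) and LINC00476 (1.86 ± 0.27, adjusted p = 1.0e-05) likewise rose after day 2. LINC01091 rose over day 2 as well, 3.39-fold (log2 1.76 ± 0.46, adjusted p = 0.00298, and 2.54 without day 2 replicate 1).

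Decreases after day 2 included LINC01588, with 0.660 and 0.874 CPM at day 5, against 3.29 and 2.83 CPM at day 2 (log2 -1.98 ± 0.33, adjusted p = 4.7e-05). LINC01503 had 0.360 and 0.710 CPM at day 5, against 2.00 and 2.34 CPM at day 2 (log2 -2.00 ± 0.39, adjusted p = 2.8e-04). LINC01915 had 0.060 and 0.273 CPM at day 5, against 1.33 and 1.19 CPM at day 2 (log2 -2.84 ± 0.57, adjusted p = 3.0e-04), and its log2 fold change was -2.19 without day 5 replicate 1 and -4.28 without day 5 replicate 2. In each of these genes both day 5 libraries lay below both day 2 libraries.

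The other genes among the 12 with the highest mean CPM differed between days by at most 2.05-fold (LINC00667 at day 5 over day 2). LINC00205, transcribed away from the start of the fucosyltransferase gene POFUT2 at a distance of 152 bases, had 71.3 and 73.2 CPM on day 0, 100.4 and 107 CPM on day 2, and 118 and 127 CPM on day 5. It was called higher at day 2 over day 0 (log2 0.52 ± 0.05, adjusted p = 2.9e-08; 0.34 when scaled to library totals), at day 5 over day 0 (0.76 ± 0.05, adjusted p = 2.0e-10) and at day 5 over day 2 (0.24 ± 0.05, adjusted p = 2.3e-04). POFUT2 rose at day 2 (log2 0.41 ± 0.04, adjusted p = 3.7e-08) and was lower at day 5 than at day 2 (-0.63 ± 0.04, adjusted p = 2.6e-10). LINC00963 had 58.6 and 60.5 CPM at day 5, against 33.3 and 31.4 CPM at day 0 (log2 0.88 ± 0.06, adjusted p = 6.1e-10), and LINC00667 had 39.2 and 44.4 CPM at day 5, against 23.0 and 24.6 CPM at day 0 (log2 0.81 ± 0.08, adjusted p = 6.7e-08). LINC00839 had 10.1 and 9.06 CPM at day 5, against 18.6 and 17.1 CPM at day 0 (log2 -0.89 ± 0.12, adjusted p = 3.4e-06). LINC02693, which GENCODE lists as protein coding, was higher at day 5 than at day 0 (log2 0.58 ± 0.06, adjusted p = 2.3e-07; 0.37 when scaled to library totals), as was LINC01128 (0.48 ± 0.10, adjusted p = 2.6e-04; 0.27 when scaled to library totals). LINC00342 did not pass (0.22 ± 0.10, adjusted p = 0.0503), with adjusted p = 0.0289 under a stricter filter, and it was higher at day 5 than at day 2 (0.26, adjusted p = 0.0267), a call lost when day 2 replicate 1, day 5 replicate 1 or day 5 replicate 2 was left out (adjusted p = 0.151, 0.114 and 0.0559).

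A list of 30 LINC numbers with a described role or another established name was also looked up, of which 18 were in the table and 5 among the 140 genes. LINC01578 is the gene CHASERR, known in mouse to restrain its neighbour Chd2, which encodes a chromatin remodeller. It had 16.1 and 17.1 CPM on day 0, 16.7 and 18.8 CPM on day 2, and 22.4 and 24.9 CPM on day 5. Day 0 and day 2 overlapped (log2 0.10 ± 0.10, adjusted p = 0.381), and day 5 was higher than day 0 (0.51 ± 0.10, adjusted p = 1.5e-04; 0.31 when scaled to library totals) and than day 2 (0.42 ± 0.10, adjusted p = 0.00115). CHD2 had 89.5 and 88.6 CPM on day 0, 174 and 171 CPM on day 2, and 126 and 122 CPM on day 5. It was thus higher at day 2 than at day 0 (log2 0.95 ± 0.04, adjusted p = 2.3e-13) and lower at day 5 than at day 2 (-0.47 ± 0.04, adjusted p = 3.5e-09). In the pair counts below, LINC01578 was paired not with CHD2 but with AC013394.1, whose start is nearer at 706 bases. AC013394.1 was called in no comparison. LINC00511, described in cancer cells as a partner of the histone methyltransferase EZH2, had 4.98 and 4.91 CPM at day 5, against 2.64 and 2.82 CPM at day 0 (log2 0.85 ± 0.23, adjusted p = 0.00378). LINC00665 had 4.58 and 3.94 CPM at day 2, against 7.61 and 6.87 CPM at day 0 (log2 -0.77 ± 0.16, adjusted p = 3.7e-04), and 7.32 and 6.99 CPM at day 5, which overlapped with day 0. LINC00467 had 4.80 to 6.16 CPM in all libraries and passed no test (log2 fold changes 0.07 ± 0.17, 0.01 ± 0.18 and -0.06 ± 0.18). LINC00461, which is known from brain, had 0 counts in 5 libraries and 2 counts in day 5 replicate 2, and LINC00261 and LINC00941 had 0 counts in every library.

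The nearest protein-coding gene within 500 kb was tested for 83 of the 118 genes. At day 2 over day 0 both partners were called in 36 pairs, of which 18 moved in the same direction (50%). At day 5 over day 0 both were called in 44 pairs and 26 moved together (59.1%). At day 5 over day 2 both were called in 45 pairs and 36 moved together (80%), 26 upward and 10 downward. The partners of genes that rose were higher in 44.4% of cases at day 2 over day 0, against 41% of all 83 partners, and in 53.8% at day 5 over day 0, against 42.2%. The partners of genes that fell were lower in 31.6% of cases, against 36.1%, and in 31.2%, against 33.7%, in the same comparisons. At day 5 over day 2, 68.4% of the partners of the 38 genes that rose were higher, against 48.2% of all 83 partners, and 66.7% of the partners of the 15 genes that fell were lower, against 33.7% of all partners. With pairs that share exon bases left out, 32 of 40 moved together at day 5 over day 2. The 83 pairs held 81 different coding genes, since SAMD11 was the neighbour of LINC02593, LINC01128 and LINC00115, and with these 3 pairs left out 34 of 43 moved together. The comparisons share libraries, and no test of these counts was made.

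LINC01619 and BTG1 rose together at day 2. Their starts are 2983 bases apart on the same strand, and 13.8% of the exonic bases of LINC01619 also belong to BTG1, so that their reads cannot be fully told apart. BTG1 had 30.6 and 28.4 CPM on day 0, 185 and 185 CPM on day 2, and 343 and 326 CPM on day 5 (log2 2.65 ± 0.04 at day 2 over day 0, adjusted p = 3.1e-18; 0.86 ± 0.03 at day 5 over day 2, adjusted p = 4.9e-13). LINC01619 rose less than BTG1 after day 2 (log2 0.35 ± 0.04, adjusted p = 3.6e-07), and this difference was not tested. LINC02593 and SAMD11, which start 2912 bases apart and run in opposite directions with no shared exon, both rose late. SAMD11 had 85.4 and 90.2 CPM at day 5, against 15.7 and 19 CPM at day 2 (log2 2.33 ± 0.09, adjusted p = 1.4e-13).

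Pairs farther apart also moved together after day 2. SPRY1, an inhibitor of receptor tyrosine kinase signalling whose start is 253472 bases from that of LINC01091, had 121 and 119.6 CPM at day 5, against 10.3 and 9.79 CPM at day 2 (log2 3.58 ± 0.06, adjusted p = 8.5e-18). LINC00900 fell to 0.480 and 1.09 CPM at day 5, against 3.12 and 3.01 CPM at day 2 (log2 -1.94 ± 0.32, adjusted p = 4.3e-05, and -2.66 without day 5 replicate 2). CADM1, a cell adhesion gene 255670 bases away, fell to 11.7 and 10.4 CPM at day 5, against 194 and 192 CPM at day 2 (log2 -4.13 ± 0.05, adjusted p = 7.8e-20). SIK1, a kinase gene induced by cAMP signalling and the neighbour of LINC01679 at 64840 bases, had only 1.08 and 3.66 CPM at day 5, against 0.167 and 0 CPM at day 2 (log2 4.82 ± 0.98, adjusted p = 3.5e-04), and the split of its reads with the near-identical SIK1B is uncertain. Opposite changes occurred too. LINC01989 fell after day 2 (log2 -1.62 ± 0.42, adjusted p = 0.00262) while ASIC2, an ion channel gene that shares 12.8% of the exonic bases of LINC01989, rose (5.80 ± 0.64, adjusted p = 4.5e-07). LINC00654 was lower at day 5 than at day 0 (log2 -1.20 ± 0.11, adjusted p = 4.4e-08) while GPCPD1, its neighbour at 106413 bases, was higher (3.27 ± 0.06, adjusted p = 2.9e-18). At day 5 over day 2 both of these rose (log2 0.41 and 1.82). In that comparison 36 pairs moved together and 9 in opposite directions. The 9 included LINC02861 (log2 -2.50), LINC01503 (-2.00) and LINC01588 (-1.98), whose neighbours CREBBP, IER5L and VCPKMT rose (1.24, 1.88 and 0.64). The days that selected LINC01091 (day 5) and LINC01989 (day 2) enter their values here.

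**Figure D5:**
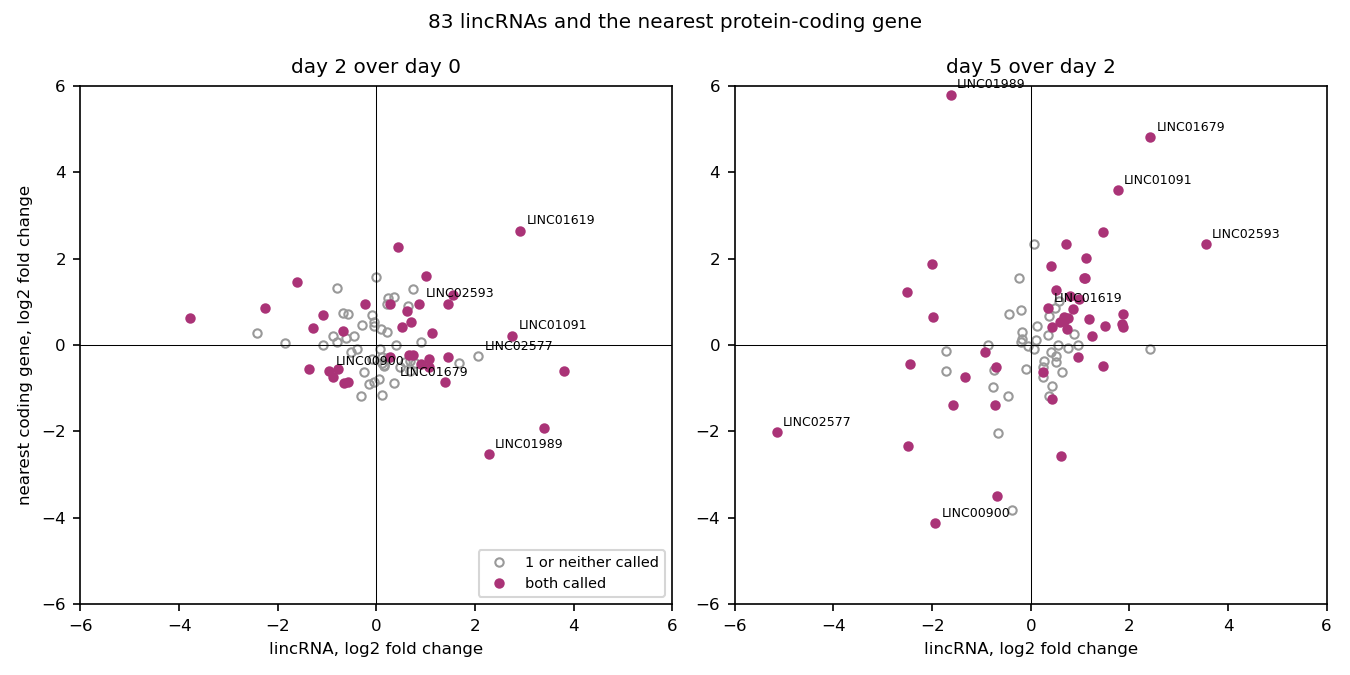
Log2 fold change of the nearest protein-coding gene (y axis) against that of the long intergenic noncoding RNA (x axis) for 83 pairs, at day 2 over day 0 and at day 5 over day 2, filled where both partners were called. Among filled points, 18 of 36 lie in the quadrants of equal direction at day 2 over day 0 and 36 of 45 at day 5 over day 2.

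The 22 genes whose mean was under 1 CPM had their highest mean at day 0 in 12 cases, at day 2 in 4 and at day 5 in 6, which the rule helps to set. LINC00689, whose exons share 22.1% of their bases with the opposite strand of the neuropeptide receptor gene VIPR2, had 0 counts in both day 0 libraries (up to 0.13 and 0.112 CPM of the library total allowed), 0.0416 and 0.112 CPM on day 2, and 3.0 and 3.11 CPM on day 5. VIPR2 had 2.16 and 1.26 CPM at day 5, against 0.0394 and 0 CPM at day 0. LINC02600 had 0.237 and 0.0344 CPM on day 0, 0 and 0.149 CPM on day 2, and 1.20 and 2.13 CPM on day 5. The adrenergic receptor gene ADRA2C, which starts 2958 bases from LINC02600 on the other strand, had 14 and 14.4 CPM at day 5, against 0.513 and 0.378 CPM at day 0. LINC00452 had 1.66 and 2.23 CPM on day 0, 0.0833 and 0.186 CPM on day 2, and 0 and 0.109 CPM on day 5, and its neighbour GAS6, which encodes a ligand of the TAM receptors, was also lowest at day 5 with 123 and 127 CPM, against 930.2 and 938 CPM at day 0. LINC01560 was highest at day 5 with 1.62 and 2.07 CPM, and LINC01844 at day 2 with 1.83 and 1.90 CPM. LINC00842, singled out after its values were seen, had a mean of 1.54 CPM at day 0 and no count at day 2 or day 5. Just inside the threshold of the rule, the lower library of the best day had 1.036 CPM for LINC00327, 1.038 CPM for LINC00519 and 1.042 CPM for LINC01287. Just outside it were LINC01135 with 0.9617, LINC02175 with 0.9656 and LINC00664 with 0.9749 CPM.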

How the data were processed

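RNA sequencing of 6 libraries was analysed, 2 at each of day 0, day 2 and day 5. Total RNA came from TRIzol extraction with a DNase I step, and a TruSeq RNA kit was used for the libraries, per the labels' protocols. The authors deposited expected counts for each gene, of which 87.2% were whole numbers, with no scaling between libraries. GRCh38 is the build in the submitters' processing notes. Aligner, counter, annotation release and strand setting are not given in the sources used here. Other columns of the deposited table (a mean per day) were not used; its gene lengths, a value of the authors in bases, gave CPM per kb.

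Counts were rounded. The 172 rows without a gene name, with 0.0356 to 0.0475% of the counts, were left out. All 6 libraries entered 1 edgeR 4.0.16 fit (R 4.3.3) by day, with TMM factors, filterByExpr and the quasi-likelihood test, two-sided, adjusted by Benjamini-Hochberg over 16328 genes and called under 0.05. All 140 genes passed the count filter. The SE is the log2 fold change divided by the square root of F. CPM are scaled by TMM factors except in the rule and the mean split. Genes were named by rule: the 12 most abundant, the 8 largest called changes without overlap in each direction and comparison, a list with known roles, genes at the threshold and 5 of low mean. The genes, lists and tests were chosen with earlier results of these data known. Neighbours came from GENCODE release 29, by distance between starts. Intervals and floors cover counting error only. Other settings were DESeq2 1.42.0, limma-voom 3.58.1, other scalings, filters and samples, glmTreat, and, added after seeing the data, pairs without shared exons or a shared neighbour.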

Additional observations from a re-analysis of the deposited data

How the results depend on the processing

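Requiring a change beyond 2-fold with glmTreat left 10 higher and 7 lower genes at day 2 over day 0. It left 16 and 12 at day 5 over day 0, and 5 and 9 at day 5 over day 2. In the last comparison the lower calls outnumbered the higher ones, but few genes were left. The called share of all genes was not counted under glmTreat or the other settings below, so the counts describe the 118 genes alone. Leaving out 1 library at a time, where the single library left on that day is assumed to vary as the others do, gave 29 to 38 higher and 23 to 27 lower at day 2 over day 0, 45 to 55 and 22 to 25 at day 5 over day 0, and 39 to 50 and 23 to 25 at day 5 over day 2. All other settings kept these counts within 1.5 times, DESeq2 with 29 and 23, 46 and 23, and 39 and 22. Of the neighbour pairs within 50 kb with both partners called, 11 of 19 moved together at day 2 over day 0 (57.9%). The numbers were 11 of 18 at day 5 over day 0 (61.1%) and 17 of 20 at day 5 over day 2 (85.0%). The rule took 193 genes at 0.5 CPM, 96 at 2 CPM and 138 with TMM-scaled CPM. The differences between replicate 1 and replicate 2 showed little correlation between days (0.00278, -0.00202 and -0.00557). This cannot show whether the replicate numbers pair the libraries, since counting error can hide a shared part. With a replicate block the counts were 34 and 27, 53 and 25, and 47 and 25.

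For the named genes, 97 of 126 log2 fold changes were called, 82 of these held in all settings but glmTreat, glmTreat ended 50, and 0 changed sign; the cause was not tested. Of the 15 calls lost elsewhere, LINC00632 at day 5 over day 0 (log2 0.52, adjusted p = 0.0136) had adjusted p = 0.0714 without day 0 replicate 1, 0.125 without day 5 replicate 1 and 0.114 with library totals. LINC00680 at day 5 over day 2 had adjusted p = 0.0654 without day 5 replicate 2, LINC01287 at day 5 over day 0 had 0.0642 and LINC01003 at day 5 over day 2 had 0.108 without day 5 replicate 1. Near 1 CPM, 2 libraries a day leave the size of a change uncertain.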

Other observations

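Among 58 long noncoding RNAs known by names other than a LINC number, a list chosen with earlier results of these data known, 39 were tested. In that list 18 were higher and 8 lower at day 2 over day 0, 22 and 10 at day 5 over day 0, and 16 and 14 at day 5 over day 2. Of all 16328 genes tested, 33.4% were higher and 33.4% lower at day 2 over day 0. These shares were 35.8% and 34.1% at day 5 over day 0, and 32.1% and 33.7% at day 5 over day 2. The median log2 fold changes of the 39 RNAs were 0.28, 0.57 and 0.01. Those of the 118 LINC genes were 0.21, 0.49 and 0.36, and those of all genes tested 0.00, 0.04 and 0.01.

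CARMN, a long noncoding RNA known from smooth muscle and heart, had 0.0789 and 0.206 CPM on day 0, 0.833 and 0.670 CPM on day 2, and 9.60 and 9.06 CPM on day 5 (log2 5.94 ± 0.35 at day 5 over day 0, adjusted p = 8.3e-11). CASC15 also rose at each step, with 15.8 and 16.3 CPM at day 5, against 0.671 and 0.619 CPM at day 0 (log2 4.63 ± 0.20, adjusted p = 9.2e-13). MALAT1, an abundant nuclear RNA, was highest on day 2 with 433 and 434 CPM, against 185 and 184 CPM at day 0 (log2 1.23 ± 0.03, adjusted p = 1.2e-16), and GAS5, a host of small nucleolar RNAs, likewise with 222 and 224 CPM, against 81.3 and 80.2 CPM at day 0 (log2 1.46 ± 0.03, adjusted p = 3.3e-16). MIR4435-2HG fell to 3.96 and 2.78 CPM at day 5, against 112 and 111 CPM at day 0 (log2 -5.06 ± 0.09, adjusted p = 3.4e-18). Its near-identical copy CYTOR fell to 2.94 and 2.95 CPM at day 5, against 53.2 and 54.3 CPM at day 0 (log2 -4.19 ± 0.11, adjusted p = 5.9e-16), and the split of reads between the copies is uncertain.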
